A study of Homo sapiens with 4 samples.

Results

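The 39 genes described here build and run the mitotic spindle: the kinases and cyclins that start mitosis, the spindle checkpoint, the kinetochore, the mitotic kinesins and the cytokinesis machinery. They were chosen by symbol, rows of the same symbol were summed, and all 39 were found among the 35979 symbols measured and among the 14940 that passed an expression minimum, a mean of 20 normalized counts. Poly(A) RNA had been sequenced from NCI-H1048, a human cell line established from a small cell lung cancer of the tuft cell-like kind, in 4 libraries. One group held 2 libraries, COLCA2 gRNA 1 and COLCA2 gRNA 2, made with different guide RNAs (gRNAs) and labelled COLCA2 knockout. Another held 1 library with POU2F3 gRNA, labelled POU2F3 knockout, and the last held 1 library with a non-targeting gRNA, labelled WT and called the control below, and for all of these the treatment is given as NA. POU2F3 is a transcription factor of tuft cells and COLCA2 encodes a cofactor of it. Whether the cells were clones or pools, and how long after guide delivery they were collected, is not given in the sources used here.

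Mitosis begins when CDK1 bound to a B-type cyclin becomes active. The spindle checkpoint then delays anaphase until every kinetochore is attached to the spindle, and the anaphase-promoting complex with CDC20 ends that wait by marking securin and cyclin B for destruction. In dividing cells the transcripts of these genes peak late in the cell cycle, through promoters that often hold CCAAT boxes and a cell cycle genes homology region (CHR), the element bound by the MuvB complexes and, through them, by MYBL2 and FOXM1. Because tumour lines divide constantly, these transcripts are commonly read as a proliferation signature.

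The reads assigned to genes numbered 21587741 to 29632382 per library, and mitochondrial genes took 3.96% to 4.47% of the total. POU2F3 itself was counted at 14602 (normalized) in the control, 3677 with COLCA2 gRNA 1, 2351 with gRNA 2 and 1449 with POU2F3 gRNA; COLCA2 stood at 5585, 3119, 3541 and 1393 in the same order. Transcript levels do not measure how far a coding sequence was disrupted. The summed count of 10 tuft cell markers, of which TRPM5, CHAT and PTGS1 stayed under the expression minimum, was 47007 without a targeting guide and 10189 to 15423 with one, while that of 6 non-neuroendocrine markers was 34822 against 79863 to 120590. Sums were 221 against 109 to 118 for 6 neuroendocrine markers (3 past the minimum). For 6 fibroblast markers (5 past it) they were 1368 against 1718 to 1999. For 4 leukocyte markers (2 past it) they were 161 against 209 to 263, with CD3E at 0 in every library. Single markers did not all follow these sums. CD68 stood at 73 in the control and 139 to 209 in the guide libraries. PTPRC (16 against 8.3 to 9.4) and LYZ (73 against 46 to 61) were lower there. Of the fibroblast markers, COL3A1 (48 against 317 to 412) and LUM (14 against 123 to 233) were higher. COL1A1, with the highest counts, stood at 1136 against 1002 to 1186. PDGFRA (124) was lower with the COLCA2 guides (110 and 81) and higher with POU2F3 gRNA (213). CDKN1A, which encodes the CDK inhibitor p21, stood at 1166 in the control and at 4718, 5184 and 4083 in the guide libraries. The part of these marker groups and of CDKN1A in the values below was not tested. In bulk RNA, fewer dividing cells and less of a transcript in each dividing cell cannot be told apart.

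Promoter sequence shows what the members share apart from their function. A RefSeq promoter (GRCh38.p14, 250 bases before to 50 after the start; the first listed window of a gene) was matched for 33 of the 39 members; TTK, UBE2C, BIRC5, AURKA, FOXM1 and TPX2 had no entry. CHR letters, TTTGAA or TTTAAA on either strand, were found in 29 of the 33 windows (87.9%), against 24.3% of 27305 promoters of the same length and 16.1% of the 11171 promoters of genes past the expression minimum. TTTAAA reads the same on both strands, so each match counts once. A CCAAT box on either strand was present in 26 of 33 (78.8%), against 35.7% of all promoters, and both elements together in 23 of 33 (69.7%), against 9.49%. CHR letters began within the last 70 bases before the start in 22 of 33 (66.7%), against 6.31% of all promoters. The octamer ATGCAAAT, the letters that POU factors bind, was found in 0 of 33 windows, against 1.80% of all promoters. E2F letters (TTTCCCGC, TTTGGCGC, TTTCGCGC or TTTGCCGC, either strand) were found in CDK1, CENPA and NUSAP1. That is 9.09% of the members' windows, against 3.33% of all and 5.2% of those of genes past the expression minimum. A match describes these windows only and is not evidence of binding.

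The stretches below belong to the members with the lowest ratios (CENPE and PTTG1), to the proliferation marker MKI67 and to the members with the highest ratios with COLCA2 gRNA (ANLN and KIF23), so that a reader can set the letters beside the values. Each is written on the gene's own strand, with CHR letters and CCAAT boxes in capitals (ATTGG is CCAAT on the other strand), and positions count from the RefSeq start, with -1 as the last base before it. CENPE is shown at chr4:103198380-103198509 (minus strand), PTTG1 at chr5:160421722-160421851 (plus), MKI67 at chr10:128126424-128126553 (minus), KIF23 at chr15:69414282-69414311 (plus) and ANLN at chr7:36389827-36389856 (plus). The KIF23 and ANLN stretches lie downstream of the outermost gene start in GENCODE release 29, and the last bases of those of CENPE and PTTG1 do too.
CENPE: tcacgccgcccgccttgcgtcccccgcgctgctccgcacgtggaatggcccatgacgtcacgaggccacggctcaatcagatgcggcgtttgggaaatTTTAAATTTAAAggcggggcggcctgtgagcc
PTTG1: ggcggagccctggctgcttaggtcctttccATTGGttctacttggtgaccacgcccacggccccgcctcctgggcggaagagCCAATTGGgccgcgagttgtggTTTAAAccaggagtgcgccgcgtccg
MKI67: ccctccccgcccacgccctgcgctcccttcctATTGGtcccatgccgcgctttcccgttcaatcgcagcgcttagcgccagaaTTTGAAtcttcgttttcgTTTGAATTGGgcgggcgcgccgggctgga
KIF23: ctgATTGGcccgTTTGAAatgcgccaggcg
ANLN: gcgctgaaaTTCAAATTTGAAcggctgcag
CENPE had a tandem pair of TTTAAA letters, with first bases at -68 and -62, a further match at -195, outside the stretch shown, and no CCAAT box in its window. PTTG1 had 1 CHR match, first base at -29, behind CCAAT boxes at -103, -51 and -48. In MKI67 the second TTTGAA, at -29, shared its last base with a CCAAT box. ANLN, which was higher with COLCA2 gRNA, carried a pair of CHR matches at -26 and -20, and KIF23, also higher there, carried one at -55 beside a CCAAT box at -64 and another at -211, outside the stretch shown. The median log2 ratio of members with and without CHR letters was -0.27 against -0.22 under COLCA2 gRNA and -0.23 against -0.23 under POU2F3 gRNA. Those without were only CCNA2, CDC25C, AURKB and BUB1, with COLCA2 gRNA ratios of -0.41 to -0.08. Medians of so few genes cannot show whether the groups differ. With and without a CCAAT box the medians were -0.24 against -0.27 for COLCA2 gRNA, and -0.21 against -0.35 for POU2F3 gRNA; none of these pairs was tested.

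**Figure D1:**
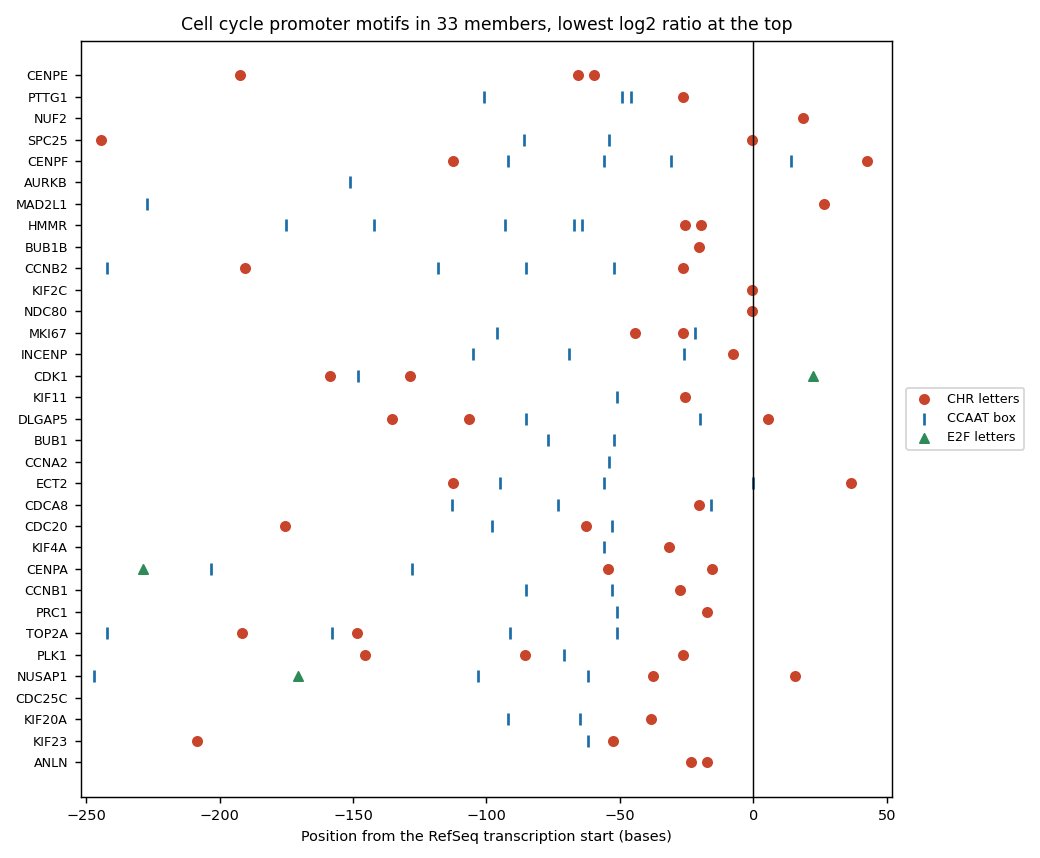
Positions of CHR letters (circles), CCAAT boxes (bars) and E2F letters (triangles) along the RefSeq promoter windows of 33 members. They are given in bases from the transcription start (vertical line). Members are ordered by the mean of their log2 ratios with COLCA2 gRNA (mean of the guides) and with POU2F3 gRNA, lowest at the top. CHR letters stand close before the start in most members, at the top and at the bottom of the order alike, and CDC25C has no match of any of these motifs.

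Most members were lower in the guide libraries than in the non-targeting library, by a modest amount. Summed over the 39 genes, mitotic transcripts made up 0.752% of the normalized total in the control, 0.611% with COLCA2 gRNA 1, 0.598% with gRNA 2 and 0.607% with POU2F3 gRNA. All ratios below are log2(normalized count + 1) against that 1 non-targeting library, so the comparisons of COLCA2 gRNA and POU2F3 gRNA share their control and are not independent of each other. The member median was -0.26 with COLCA2 gRNA 1, -0.24 with COLCA2 gRNA 2 and -0.24 for the mean of the guides (SD of the guides' medians 0.011, n = 2), and it was -0.23 with POU2F3 gRNA. Over all genes tested the medians were -0.0087 with COLCA2 gRNA and -0.0037 with POU2F3 gRNA.

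Lower levels at any size were seen with both COLCA2 guides in 33 of 39 members, where 41.8% of all genes were lower with both. With POU2F3 gRNA 34 of 39 were lower, where 50.4% of all genes were. AURKA, KIF20A, KIF23 and ANLN were higher with both COLCA2 guides (41.0% of all genes), PLK1 and TPX2 were on different sides with the guides, and CDC25C, AURKA, KIF11, KIF20A and ANLN were higher with POU2F3 gRNA (49.6% of all genes). When libraries were scaled to equal totals, the median of all genes moved to -0.077 with COLCA2 gRNA and -0.038 with POU2F3 gRNA, and with POU2F3 gRNA the small ratios of AURKA and KIF11 went from 0.013 and 0.010 to -0.021 and -0.024. The non-targeting library had the highest count of the 4 libraries in 31 of 39 members, as it did in 35.3% of all genes.

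A threshold of 0.32 on the log2 scale was used for calls, which is a level at or below 80% of the control, or at or above 125% of it. With both COLCA2 guides past it, 10 of 39 members were lower with COLCA2 gRNA (14.5% of all genes): AURKB, BUB1B, MAD2L1, NUF2, SPC25, KIF11, CENPE, CENPF, PTTG1 and HMMR. ANLN was the 1 member higher by that measure (17.1% of all genes). With POU2F3 gRNA 12 members were lower (18.0% of all genes), namely AURKB, BUB1B, TTK, MAD2L1, NUF2, SPC25, KIF2C, CENPE, CENPF, PTTG1, HMMR and FOXM1, and none was higher (22.0% of all genes). Among genes with a mean of at least 100, as all members are, the background of lower genes was 13.0% for COLCA2 gRNA and 15.7% for POU2F3 gRNA. The threshold carries no test, because the POU2F3 and non-targeting groups have 1 library each.

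Larger differences were few. NUF2, CENPE and PTTG1 were at least 1.5-fold lower with both COLCA2 guides (6.03% of all genes). With POU2F3 gRNA, SPC25, CENPE, CENPF and PTTG1 were (7.69% of all genes). The calls of SPC25 rest on a sum over rows that did not move alike, as described below. At 2-fold no member was left for COLCA2 gRNA (2.02% of all genes) and only CENPE for POU2F3 gRNA (3.05% of all genes). The SD between the COLCA2 guides was 0.017 to 0.16 on the log2 scale over the members. Its median was 0.068, against 0.077 over genes with a mean of at least 100 and 0.092 over all genes. The guides thus agreed on the members about as well as on other well-counted genes. Between gRNA 1 and gRNA 2, 0 members passed the threshold in either direction, where 10.1% of all genes were lower and 8.42% higher with gRNA 1. Those shares include genes down to a mean of 20, while every member had a mean of at least 487.

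**Figure D2:**
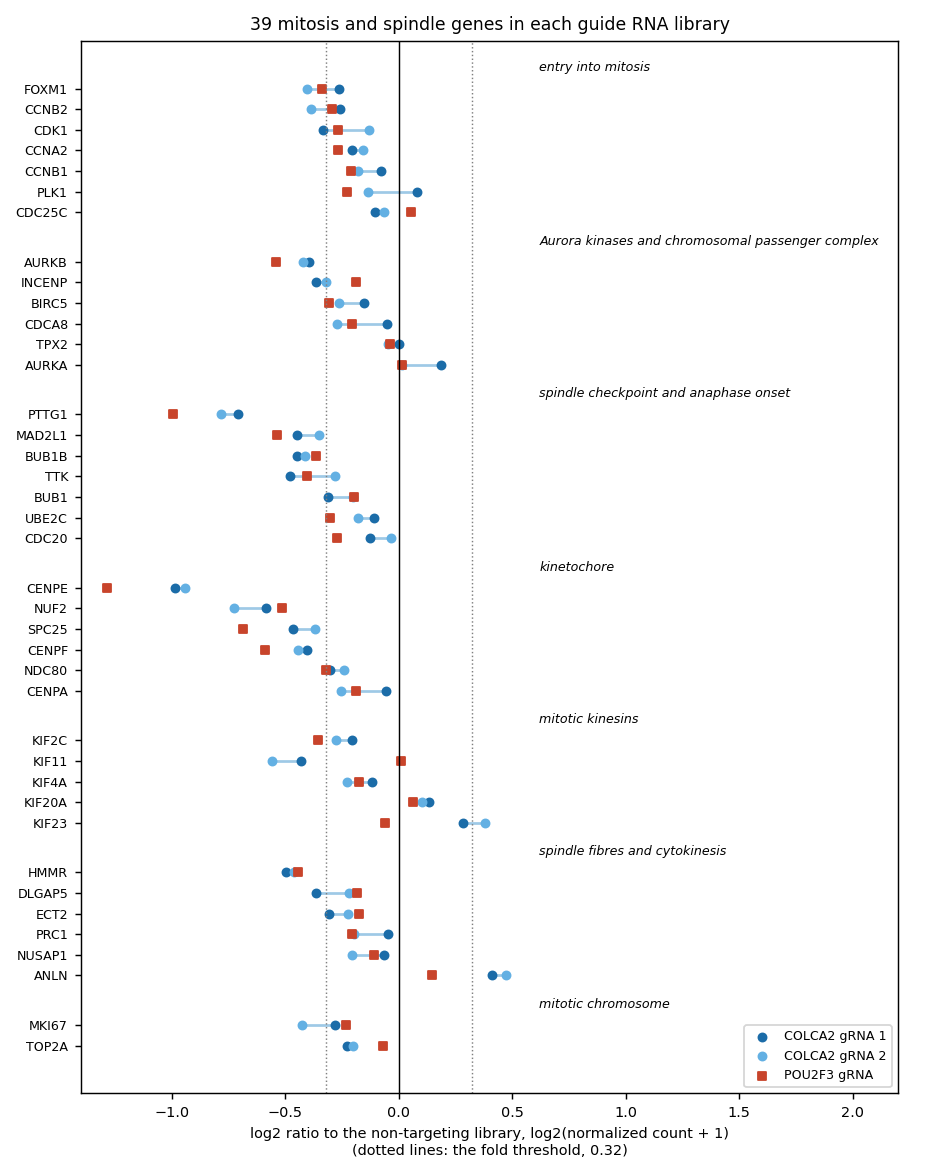
Log2 ratio to the non-targeting library of each of the 39 members with COLCA2 gRNA 1, COLCA2 gRNA 2 and POU2F3 gRNA, 1 point per library, grouped by role; the vertical line at 0 is the level of the non-targeting library. Most points lie left of 0, CENPE and PTTG1 farthest, and ANLN lies to the right in all 3 guide libraries.

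Counting error was small at these depths, since a member had 403 to 24765 reads in a library. The ratio of each library to the non-targeting library was given an exact (Clopper-Pearson) 95% interval, which covers counting error only. With both COLCA2 guides 28 members lay entirely below 100% of the non-targeting level (24.0% of all genes, and 26.7% of those with a mean of at least 100). Entirely above it lay 3 members (25.3% and 28.0%). With POU2F3 gRNA 32 members lay below (31.3% and 34.6%), 1 above (31.7% and 34.0%), and 6 spanned it. Differences between cultures are not covered by such intervals.

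Among the genes that bring a cell into mitosis (CCNB1, CCNB2, CCNA2, CDK1, CDC25C, PLK1 and FOXM1), the median log2 ratio was -0.18 with COLCA2 gRNA and -0.27 with POU2F3 gRNA. FOXM1, the forkhead factor that drives late cell cycle transcription, had normalized counts of 7764 in the control, 6477 with COLCA2 gRNA 1, 5874 with gRNA 2 and 6147 with POU2F3 gRNA. All guide libraries were below the control, with a mean log2 ratio of -0.33 ± 0.10 (SD, n = 2) for COLCA2 gRNA and -0.34 for POU2F3 gRNA. CDC25C, the phosphatase that activates CDK1, stood at 496, 461, 474 and 515 in that order. Its counts hardly differed: every interval spanned 100%, with mean log2 ratios of -0.08 ± 0.027 and 0.06. The cyclins CCNB1, CCNB2 and CCNA2 and their kinase CDK1 were all lower in the 3 guide libraries, and none of them passed the threshold with both COLCA2 guides or with POU2F3 gRNA. FOXM1 with POU2F3 gRNA was the 1 member of this group that did. PLK1, the kinase that supports spindle assembly and mitotic exit, was 106% of the control level with gRNA 1 and 91.1% with gRNA 2.

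The Aurora kinases and the chromosomal passenger complex (AURKA, TPX2, AURKB, INCENP, BIRC5 and CDCA8) had medians of -0.18 with COLCA2 gRNA and -0.20 with POU2F3 gRNA, and AURKB was the 1 member past the threshold in each. AURKB, the kinase that corrects faulty chromosome attachments, was counted at 1625 in the control, 1235 with COLCA2 gRNA 1, 1215 with gRNA 2 and 1118 with POU2F3 gRNA. The control lay above all others, with log2 ratios of -0.41 ± 0.017 (SD, n = 2) and -0.54. AURKA, the kinase of the spindle poles, went the other way or nowhere, at 2144, 2440, 2164 and 2163. The counting interval excluded 100% only with COLCA2 gRNA 1, at 114% of the control (107% to 121%). TPX2, the activator of AURKA on spindle fibres, was at 96.8% to 100.1% of the control level in the guide libraries. INCENP, BIRC5 and CDCA8, partners of AURKB in the complex, were lower in all guide libraries.

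The spindle checkpoint and anaphase group (BUB1, BUB1B, TTK, MAD2L1, CDC20, UBE2C and PTTG1) had medians of -0.38 with COLCA2 gRNA and -0.37 with POU2F3 gRNA. All 7 were lower in every guide library, 3 past the threshold with both COLCA2 guides and 4 with POU2F3 gRNA. PTTG1 encodes securin, the inhibitor of separase that is destroyed at anaphase. Normalized counts were 4645 in the control, 2841 with COLCA2 gRNA 1, 2700 with gRNA 2 and 2335 with POU2F3 gRNA. Levels were thus 61.2% (58.3% to 64.1%), 58.1% (55.3% to 61.1%) and 50.3% (48.0% to 52.7%) of the control, with log2 ratios of -0.75 ± 0.052 (SD, n = 2) and -0.99. The near-identical copies PTTG2 and PTTG3P were listed at 0 to 1.9, and how reads shared between copies were assigned is not given in the sources used here. CDC20, the checkpoint's target and activator of the anaphase-promoting complex, stood at 5306, 4855, 5186 and 4402 in the same order. Its log2 ratios were small with the COLCA2 guides (-0.08 ± 0.067) and -0.27 with POU2F3 gRNA. Checkpoint kinases BUB1 and TTK, the pseudokinase BUB1B and MAD2L1, which sequesters CDC20, lay between PTTG1 and CDC20 in their mean ratio with the COLCA2 guides, as did UBE2C, the ubiquitin-conjugating enzyme that works with the anaphase-promoting complex. With POU2F3 gRNA, BUB1 had the smallest difference of the group, -0.19.

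Among the 7 role groups the 6 kinetochore genes had the lowest medians, a difference between groups that was not tested. NDC80, NUF2, SPC25, CENPA, CENPE and CENPF had medians of -0.42 with COLCA2 gRNA and -0.55 with POU2F3 gRNA, and 4 of the 6 passed the threshold in each comparison. CENPE, the kinesin motor that carries chromosomes to the spindle equator, had normalized counts of 2050 in the control, 1036 with COLCA2 gRNA 1, 1069 with gRNA 2 and 842 with POU2F3 gRNA. It was the lowest member in both comparisons, at 50.5% (46.8% to 54.5%), 52.1% (48.2% to 56.4%) and 41.1% (38.1% to 44.3%) of the control and at log2 ratios of -0.96 ± 0.032 (SD, n = 2) and -1.28. CENPF, a large protein of the outer kinetochore, was the member with the highest counts, 23649, 17889, 17374 and 15740. All guide libraries were below the control, by log2 ratios of -0.42 ± 0.030 and -0.59. NUF2, a subunit of the NDC80 complex that grips microtubules, was at 3263, 2173, 1975 and 2287. Its ratios were -0.66 ± 0.098 and -0.51, so that NUF2 was lower with each COLCA2 guide than with POU2F3 gRNA.

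SPC25, another subunit of the NDC80 complex, needs care. Its summed counts were 1790 in the control, 1297 with COLCA2 gRNA 1, 1384 with gRNA 2 and 1113 with POU2F3 gRNA, giving log2 ratios of -0.42 ± 0.066 and -0.68. The files hold a pair of rows for this symbol. The row of the primary identifier, ENSG00000152253, held 525, 457, 535 and 550, and a second row, ENSG00000277909, held 1264, 840, 849 and 563. With COLCA2 gRNA 2 and POU2F3 gRNA the primary row was not below the control, so the lower sums there lie in the second row alone. With COLCA2 gRNA 1 both rows were lower. How reads were shared between the rows is not given in the sources used here. CENPA, the histone that marks centromeres, was the kinetochore gene with the smallest difference, at 958, 921, 803 and 840. Its mean ratio with the COLCA2 guides, -0.16 ± 0.14 (SD, n = 2), was about as large as the spread between them, and its ratio with POU2F3 gRNA was -0.19.

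**Figure D3:**
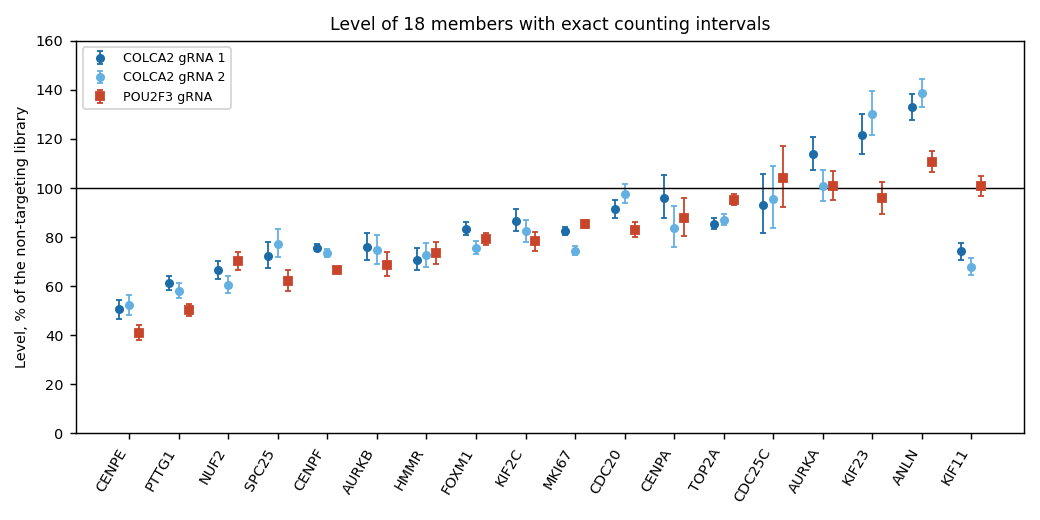
Level in each guide library as a percentage of the non-targeting library for the members whose values are given for every library, with exact 95% intervals that cover counting error only; the line at 100% is the control. CENPE and PTTG1 lie lowest, and ANLN and KIF23 lie above the line with both COLCA2 guides.

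The mitotic kinesins (KIF11, KIF20A, KIF23, KIF2C and KIF4A) were the most mixed group, with medians of -0.17 with COLCA2 gRNA and -0.06 with POU2F3 gRNA. KIF23, the motor of the central spindle in cytokinesis, had normalized counts of 1533 in the control, 1866 with COLCA2 gRNA 1, 1997 with gRNA 2 and 1469 with POU2F3 gRNA. Both COLCA2 guides were above the other libraries, at log2 ratios of 0.33 ± 0.069 (SD, n = 2), while POU2F3 gRNA was at -0.06. KIF2C, which depolymerizes microtubules at kinetochores, stood at 3245, 2815, 2677 and 2540, below the control throughout, at -0.24 ± 0.051 and -0.35. KIF11, the motor that pushes the spindle poles apart, was singled out after its values were seen. Its counts were 4117 in the control, 3055 with COLCA2 gRNA 1, 2794 with gRNA 2 and 4146 with POU2F3 gRNA. The POU2F3 gRNA library matched the control within counting error, at 101% (96.6% to 105%), and the COLCA2 guides were lower, at -0.49 ± 0.091. KIF20A, a motor of the central spindle, was 104% to 110% of the control in the guide libraries, and KIF4A, a chromosome-bound motor, was lower in all of them, at 85.5% to 92.2%.

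In the group of spindle fibre and cytokinesis genes (HMMR, NUSAP1, DLGAP5, PRC1, ANLN and ECT2) the medians were -0.20 with COLCA2 gRNA and -0.18 with POU2F3 gRNA. HMMR, a microtubule-binding protein of the spindle, was counted at 2273 in the control, 1610 with COLCA2 gRNA 1, 1649 with gRNA 2 and 1671 with POU2F3 gRNA. The guide libraries lay close to each other and below the control, at log2 ratios of -0.48 ± 0.024 (SD, n = 2) and -0.44. ANLN, the actin-binding scaffold of the contractile ring, stood at 4441, 5899, 6155 and 4913. It was higher in every guide library, at 133% (128% to 138%) and 139% (133% to 144%) of the control with the COLCA2 guides and 111% (106% to 115%) with POU2F3 gRNA, or 0.44 ± 0.043 and 0.15 on the log2 scale. ECT2, the exchange factor that activates RhoA at the cell equator, PRC1, DLGAP5 and NUSAP1, which bundle or stabilize spindle microtubules, were lower in all guide libraries.

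Both genes of the mitotic chromosome, MKI67 and TOP2A, were lower in all guide libraries. Neither passed the threshold with both COLCA2 guides or with POU2F3 gRNA, though MKI67 was past it with COLCA2 gRNA 2 alone, at -0.42. MKI67, the coat protein of mitotic chromosomes known as the Ki-67 antigen, had 17986 normalized counts in the control, 14830 with COLCA2 gRNA 1, 13397 with gRNA 2 and 15334 with POU2F3 gRNA. Its log2 ratios were -0.35 ± 0.10 (SD, n = 2) and -0.23. TOP2A, the topoisomerase that untangles sister chromatids, stood at 13345, 11404, 11605 and 12711 in the same order. COLCA2 guides gave -0.21 ± 0.018 and POU2F3 gRNA gave -0.07, the smaller difference.

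An edgeR quasi-likelihood test on the recovered reads, with Benjamini-Hochberg adjustment over all genes, was run as an alternative to the fold threshold. The fit has 1 residual degree of freedom, the spread between the COLCA2 guides, which may be partly technical. Applied to POU2F3 gRNA it sets 1 library against another rather than testing the condition. For COLCA2 gRNA the control is the same 1 library, so differences between control cultures are not covered there either. At an adjusted p under 0.05, 12 members were lower with COLCA2 gRNA (7.51% of all genes), the 10 of the fold threshold plus MKI67 and INCENP, and ANLN was higher (11.4% of all genes). With POU2F3 gRNA 7 were lower (3.98% of all genes), AURKB, MAD2L1, NUF2, SPC25, CENPE, CENPF and PTTG1, and 0 were higher (8.45% of all genes). CENPE had adjusted p-values of 0.00123 with COLCA2 gRNA and 0.00105 with POU2F3 gRNA by edgeR, and PTTG1 had 0.0021 and 0.00175. For ANLN they were 0.015 and 0.37, and for KIF11 0.015 and 0.94.

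The POU2F3 gRNA library was then set against the COLCA2 guide libraries directly, which needs no control. The member median of that difference was -0.05 (SD over the guides 0.044, n = 2), where the median over all genes was -0.0039. It was -0.0091 without COLCA2 gRNA 1 and -0.072 without gRNA 2, so its size depends on the guide. Levels were lower with POU2F3 gRNA than with each COLCA2 guide in 19 members (38.9% of all genes), higher than with each in 11 (35.6%) and between the guides in 9. KIF23 was the 1 member past the threshold below each guide (6.46% of all genes), by -0.39 on the log2 scale against their mean. KIF11 was the 1 member past it above each (6.56% of all genes), by 0.50. ANLN and CENPE were lower with POU2F3 gRNA than with either guide, by -0.29 and -0.32 against the mean. By edgeR 0 members were lower (0.234% of all genes) and 0 higher (0.107% of all genes) at an adjusted p under 0.05, and 4 were lower (6.75% of all genes) and 1 higher (6.89%) at an unadjusted p under 0.05. The adjusted p of this difference was 0.10 for KIF11, 0.22 for KIF23, 0.24 for ANLN and 0.30 for CENPE, so none was shown to differ between the targets.

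**Figure D4:**
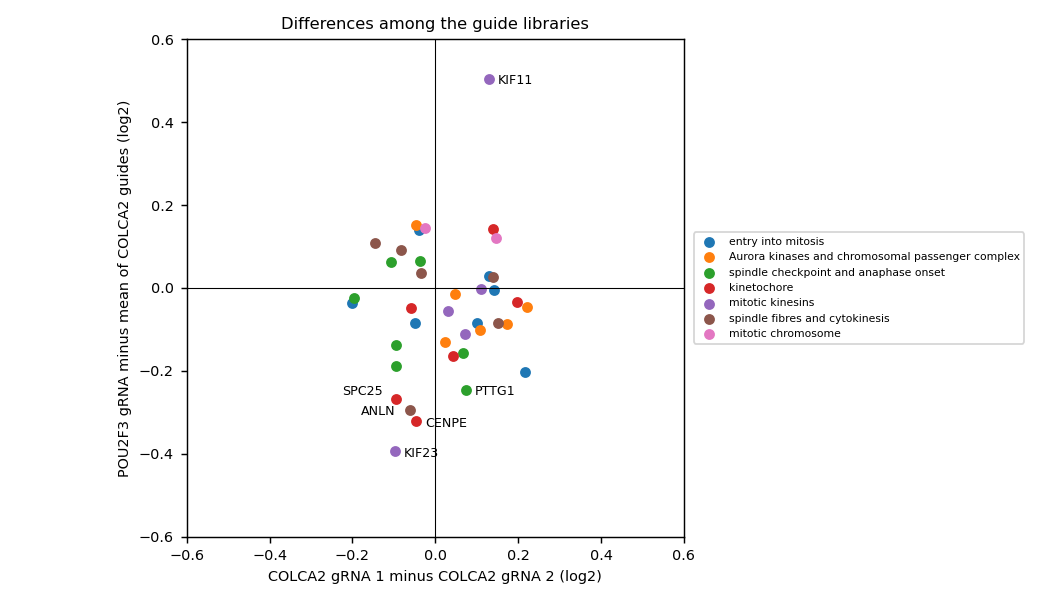
Log2 difference of POU2F3 gRNA from the mean of the COLCA2 guides (vertical axis) against that between COLCA2 gRNA 1 and COLCA2 gRNA 2 (horizontal axis) for the 39 members, 1 point each, coloured by role. KIF11 stands highest at 0.50 and KIF23 lowest at -0.39, while the differences between the guides are at most 0.22 in size.

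Levels between genes can be compared only per length. Dividing the non-targeting count by the kilobases of the longest GENCODE transcript, PTTG1 was the most abundant member, at 4341 per kilobase, followed by UBE2C at 3850, CCNB1 at 3340 and CDC20 at 2986. KIF23 at 412, CENPE at 238 and CDC25C at 232 were the least abundant, an 18.7-fold range over the members. PTTG1 and CENPE, the members furthest below the control, thus sat near opposite ends of this order. The members lie on 17 chromosomes. In GENCODE, 16 of them share exon bases with another gene. For 4 the partner is on the same strand, where strand cannot separate the reads: BUB1B with the readthrough BUB1B-PAK6 (457 bases), CENPA with SLC35F6 (138), PRC1 with AC068831.7 (3181) and NUSAP1 with AC087721.2 (1787), and the counts of these are uncertain. Whether counting used the strand is not given in the sources used here, so the others of the 16 are uncertain too; CENPE, PTTG1 and KIF11 share none.

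Other genes of mitosis, in lists written from general knowledge, showed where the members stand in their pathway. Over 128 further genes the medians were -0.24 with COLCA2 gRNA and -0.22 with POU2F3 gRNA, with 30 and 46 past the threshold on the lower side (14.5% and 18.0% of all genes) and 4 and 2 on the higher (17.1% and 22.0%). Kinetochore and centromere genes were lower in 10 and 15 of 32 (medians -0.27 and -0.29), spindle, kinesin and cytokinesis genes in 8 and 9 of 28, and mitotic kinases and regulators in 3 and 8 of 17. Condensin and cohesin genes were lower in 5 and 6 of 22, and genes of MuvB and DREAM complexes in 1 and 5 of 12. Subunits and partners of the anaphase-promoting complex were lower in 3 and 3 of 17, a share near that of all genes. With COLCA2 gRNA the share of mitotic kinases and regulators, 17.65%, was also near it. The share of MuvB and DREAM genes with COLCA2 gRNA, 8.33%, was below it. The large kinetochore scaffold KNL1 had 2595 normalized counts in the control, 1628 with COLCA2 gRNA 1, 1404 with gRNA 2 and 1645 with POU2F3 gRNA. CENPH, of the inner kinetochore, stood at 1307, 834, 866 and 867, and KIF15, a motor that works beside KIF11, at 1803, 1191, 1037 and 1116. These 3 were at least 1.5-fold lower in every guide library, as was CDC25A, a phosphatase that activates CDKs, at 1387, 886, 740 and 703. WEE1, the kinase that holds CDK1 inactive, was the 1 gene of these lists at least 1.5-fold higher in every guide library, at 1581, 2830, 2776 and 2626, or 0.83 ± 0.020 (SD, n = 2) and 0.73 on the log2 scale.

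Genes of DNA replication and the G1/S transition, which act earlier in the cell cycle, had medians of -0.21 with COLCA2 gRNA and -0.24 with POU2F3 gRNA over 40 genes, with 5 and 16 past the threshold on the lower side; for COLCA2 gRNA that share is below the 14.5% of all genes. These medians lie close to those of the mitotic members, and no difference between the lists was tested. The 14 reference genes had medians of 0.28 and 0.12, on the other side of 0. Past the threshold on the higher side were 5 and 3 of them (17.1% and 22.0% of all genes). With POU2F3 gRNA that share, 21.4%, was near that of all genes. B2M, the light chain of MHC class I, was the 1 reference gene at least 1.5-fold higher in every guide library. Its counts were 12624 in the control, 21044 with COLCA2 gRNA 1, 22426 with gRNA 2 and 19447 with POU2F3 gRNA, or 0.78 ± 0.065 (SD, n = 2) and 0.62 on the log2 scale.

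**Figure D5:**
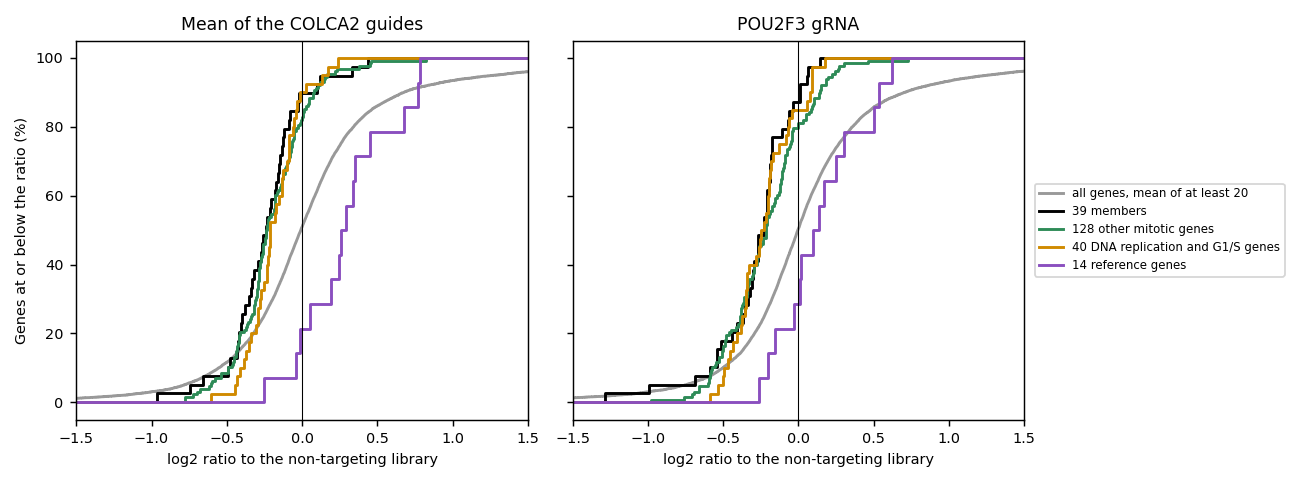
Share of genes (vertical axis, in percent) at or below each log2 ratio to the non-targeting library (horizontal axis), for the mean of the COLCA2 guides (left) and for POU2F3 gRNA (right), with 1 line each for all genes past the minimum, the 39 members, 128 other mitotic genes, 40 replication genes and 14 reference genes. The members, the other mitotic genes and the replication genes run together to the left of all genes, with medians between -0.21 and -0.24, and the reference genes lie to the right.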

How the data were processed

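Poly(A) RNA of 4 NCI-H1048 libraries was analysed from the normalized counts that the authors deposited for each gene, a signal on a linear scale. Salmon, DESeq2 and hg38 are named, without version or role, in the submitters' processing notes; the annotation and use of the strand are not given in the sources used here. In each library 100% of the deposited signal values were whole multiples of 1 step (tolerance 0.01), so whole reads could be recovered; estimated counts may have been rounded before scaling.

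Rows of a symbol were summed, and genes with a mean of at least 20 were kept. Ratios used a pseudocount of 1, which understates the change of low genes, and calls needed a log2 ratio of 0.32 in size, with both guides for COLCA2. Groups came from the labels; nothing says whether the COLCA2 libraries came from separate cultures, so their spread may be partly technical. The alternative was edgeR 4.0.16 (R 4.3.3; quasi-likelihood, TMM, 3 groups, Benjamini-Hochberg adjustment). Scripts (Python 3.11.15, scipy 1.17.1) were tested on simulated data. Alternatives were 3 scalings, pseudocounts of 0.1 and 10, other expression minimums and 1.5- and 2-fold thresholds. Further ones were the row with the highest mean per symbol, the mean in place of the median and each guide left out. For SPC25 that row was the second one, so this alternative kept its lower values. Values per library are given for the lowest and highest member of each of 7 role groups and for members at least 1.5-fold from the control in any library; other genes are named where 1.5-fold apart in the same direction in every guide library. Members and lists were chosen with earlier results of these data known. Positions and lengths come from GENCODE release 29 (GRCh38). Gene lists came from general knowledge. A planned search for a protein motif was not run.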

Additional observations from a re-analysis of the deposited data

How the results depend on the processing

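Direction was kept by every median and count under the alternatives run. Scaling to equal totals moved the member median to -0.31 with COLCA2 gRNA and -0.26 with POU2F3 gRNA, and called 15 and 16 members lower, while the share of all genes called lower went to 18.5% and 20.3%; the share of higher genes among all genes called went from 54.0% to 43.9% for COLCA2 gRNA and from 55.1% to 49.8% for POU2F3 gRNA. The POU2F3 gRNA median was -0.22 with TMM scaling and with the edgeR fit, and -0.29 as a mean over the members. Without 1 COLCA2 guide, the COLCA2 gRNA median was -0.24 to -0.26, the members called lower were 13 to 14 and the median difference of POU2F3 gRNA from COLCA2 gRNA was -0.0091 to -0.072. Counts of lower members were 3 and 4 at 1.5-fold and 0 and 1 at 2-fold for COLCA2 and POU2F3 gRNA, stricter thresholds by construction, and 12 and 7 by edgeR. Of 180 values of named members under other scalings and pseudocounts, 162 stayed within the SD of the guides and 0 reversed a called value. The 18 that moved further were all under scaling to equal totals, so the size of the ratios depends on the scaling. Pseudocounts could hardly move them, since every member had a mean count of at least 487. No paired analysis was possible because only the COLCA2 group has a second library.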
